A study of Mus musculus with 10 samples.

Results

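The glutathione and antioxidant defense genes are the genes of the count table whose symbols name a glutathione peroxidase, glutathione transferase, peroxiredoxin, thioredoxin, thioredoxin reductase, superoxide dismutase, catalase, heme oxygenase, sulfiredoxin or glutathione-synthesizing enzyme, together with Nqo1, Nfe2l2 and Keap1. The symbols were matched without use of any measured value, and 58 of the 50763 genes in the table are members. Lens epithelial explants of FVB/N mice aged 3 weeks gave 3 wild-type (WT) RNA-seq libraries, 3 of the transgenic family OVE853 and 4 of the family OVE918. Both families are homozygous for a transgene of human TGF-β1, made constitutively active and secreted, under the murine αA-crystallin promoter. That promoter is active only in the lens, in its fibers as well as its epithelium, and both families develop anterior subcapsular cataract. WT mice had the same background and no transgene, and every group drew males and females evenly from several litters. Each library is a pool of up to 9 mice in WT and OVE853 and up to 7 mice in OVE918, and the whole epithelium was taken with its plaque, so that plaque and remaining epithelium are mixed. The p-values therefore measure the spread between pools, and fewer cells of a type and less RNA per cell cannot be told apart in any value below.

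Glutathione is the main small thiol of the lens, where it keeps proteins reduced and feeds the glutathione peroxidases and glutathione transferases. Peroxiredoxins remove peroxides with electrons from thioredoxin, superoxide dismutases make the hydrogen peroxide that catalase and the peroxidases then clear, and loss of these defenses is a textbook accompaniment of cataract. The transcription factor NRF2, encoded by Nfe2l2 and held in check by KEAP1, induces many of the members through antioxidant response elements (AREs) in their promoters and enhancers.

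The promoters below are shown because they hold the ARE core in members that the results turn on (Gclm, Prdx6, Gstm5 and Sod1) or in textbook NRF2 targets (Prdx1 and Txnrd1). The core searched was TGACNNNGC on both strands of a window from 250 bases before to 50 bases after the Ensembl canonical start in GRCm39. It was found in 9 of the 58 member windows (15.5%) and in 2713 of 21770 windows of protein-coding genes (12.5%). Each stretch is read on the strand of its gene and ends at or before the start, and capitals mark the 9 bases of the core or of its reverse complement.
Gclm, chr3:122039052-122039100, plus strand: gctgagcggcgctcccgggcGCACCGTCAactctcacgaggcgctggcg
Prdx6, chr1:161079133-161079181, minus strand: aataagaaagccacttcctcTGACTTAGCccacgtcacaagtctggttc
Gstm5, chr3:107803108-107803136, plus strand: tgcgcctgcgcaccgcccacTGACCACGC
Sod1, chr16:90017293-90017341, plus strand: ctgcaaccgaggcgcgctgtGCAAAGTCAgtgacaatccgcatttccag
Prdx1, chr4:116542643-116542691, plus strand: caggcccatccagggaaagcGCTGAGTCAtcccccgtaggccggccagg
Txnrd1, chr10:82694928-82694976, plus strand: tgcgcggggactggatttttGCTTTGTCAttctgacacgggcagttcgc
The windows of Hmox1, Nqo1, Gclc, Gsr, Gpx3 and Sod3 held no core, which says only that these letters are not in those 300 bases. Of the 6 members shown, Gclm was higher than WT in both lines, Gstm5 was higher in OVE918, Prdx6 was lower in both, Sod1 was lower in OVE853, and neither Prdx1 nor Txnrd1 passed the test in either line (values below). Gclm, Prdx6, Gstm5 and Sod1 were shown because they changed, so these directions say nothing about the core. The windows of Srxn1, Hmox2 and Gsta3 also held a core and are not shown.

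The libraries held 24073311 to 31908525 counts on genes, and the members took 0.365% to 0.536% of them. As a check of the labels, the row of Tgfb1, in which transgene and endogenous RNA cannot be told apart, stood at 50.6, 61.7 and 50.7 CPM (counts scaled to a common library size, CPM, after TMM normalization) in WT. It stood at 361, 339 and 349 CPM in OVE853 and at 881, 715, 717 and 788 CPM in OVE918. All 6 lens epithelium markers were detected in every library. Their summed level was 153522 to 158664 CPM in WT, 103613 to 118140 CPM in OVE853 and 128027 to 195417 CPM in OVE918. The single markers differed. The connexin gene Gja1 was at 512 to 572 CPM in WT, 98 to 127 CPM in OVE853 and 55.6 to 79.9 CPM in OVE918. In the same order, Cdh1 was at 258 to 395, 171 to 227 and 192 to 277 CPM. Foxe3 was at 424 to 764, 724 to 836 and 513 to 651 CPM. Pax6 was at 430 to 463, 435 to 473 and 356 to 402 CPM. WT replicate 3 stood apart by its retinal neuron markers, whose summed level was 827 CPM against 81.5 and 99.6 CPM in the other WT libraries. It was the highest WT library for 20 of the 42 tested members (47.6%), for 8 of the 12 members that were lower at the FDR in either line (66.7%) and for 40.5% of all tested genes, so results are also given without it.

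Of the 58 members, 42 entered the test, which asked for at least 2 FPKM (CPM per kilobase of exon) in 5 libraries. The 16 others comprise 8 with at most 3 counts in every library (Gpx2, Gpx5, Gpx6, Gsta13, Gsta5, Gstp3, Gstt4 and Mgst2) and 8 with more (Gsta1, Gsta2, Gsta3, Gstm3, Gsto2, Gstp2, Gstt2 and Gstt3), none above 2.47 FPKM in any library. Per length, the mu-class transferase Gstm1 was the most abundant member in WT at 959 ± 178 FPKM (SD, n = 3). It made up 23.6% to 30.6% of the members' counts in WT, 26.6% to 29% in OVE853 and 17.3% to 26.3% in OVE918. Next came Gpx4, the peroxidase that reduces lipid hydroperoxides within membranes, at 347 ± 92.6 FPKM, and Gstm2 at 183 ± 38 FPKM. Prdx5, the glutathione synthetase gene Gss, Prdx2, Gstp1 and Prdx6 followed in that order between 138 and 112 FPKM, and neighbours among them differed by less than their SDs of 12.2 to 53.7 FPKM. At the other end of the tested members, the glutathione reductase gene Gsr stood at 2.49 ± 0.103 FPKM.

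**Figure D1:**
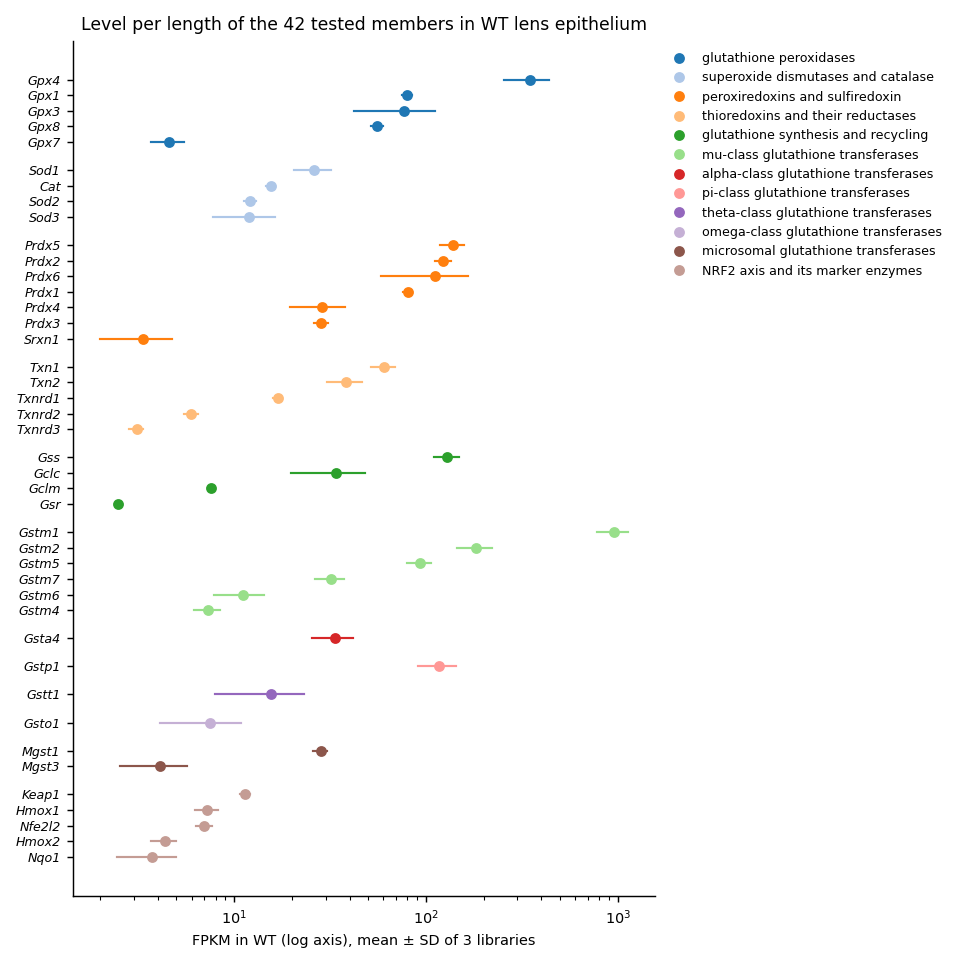
Level per exon length of the 42 tested members in WT, on a log axis, grouped and coloured by role, as mean ± SD of 3 libraries. Gstm1 stands at 959 FPKM and Gsr at 2.49 FPKM.

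The transgenic epithelium had lower levels of a few antioxidant genes with large changes, and smaller rises in a few others. Gpx3 and Sod3, which encode secreted enzymes, Prdx6 and the theta-class transferase Gstt1 were reduced in both lines, and Gstm2 was reduced in OVE918. Gclm, the modifier subunit of the enzyme that limits glutathione synthesis, rose to nearly the 2-fold bound in both lines. A gene was called elevated or reduced at an adjusted p (FDR, edgeR quasi-likelihood test over 11097 genes) of at most 0.05 and at least a 2-fold change, and higher or lower at the FDR alone. In OVE853, 0 of 42 members were elevated (2.51% of all tested genes were) and 4 were reduced (1.91% of all). At the FDR alone 2 were higher (8.10% of all) and 11 lower (7.69% of all). In OVE918, 0 were elevated (2.58% of all) and 5 reduced (3.02% of all), with 5 higher (8.00% of all) and 8 lower (11.0% of all) at the FDR alone. For the counts of 0, DESeq2 called 0 in OVE853 and 1 in OVE918 (Hmox1), voom called 0 in each, and 0 and 1 members were 2-fold higher at an unadjusted p under 0.05. The median log2 fold change of the tested members was −0.21 in OVE853 and −0.10 in OVE918, against −0.01 and 0.01 for all tested genes. Both lines were compared with the same WT libraries.

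Without WT replicate 3, 2 members were reduced in OVE853 (Gpx3 and Prdx6) and the same 5 in OVE918. Of all tested genes, 123 of 10953 were then reduced in OVE853 and 249 in OVE918, against 212 and 335 of 11097 with all libraries. At the FDR alone, 1 member was then higher in OVE853 (6.20% of all genes) and 8 lower (4.59% of all), and in OVE918 5 were higher (6.35% of all) and 9 lower (8.30% of all). The count of 4 in OVE853 also fell to 2 without OVE853 replicate 2 and without OVE853 replicate 3. Reduced genes among all tested likewise fell to 152 and 131 in these fits, so the loss of calls was not particular to the members.

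**Figure D2:**
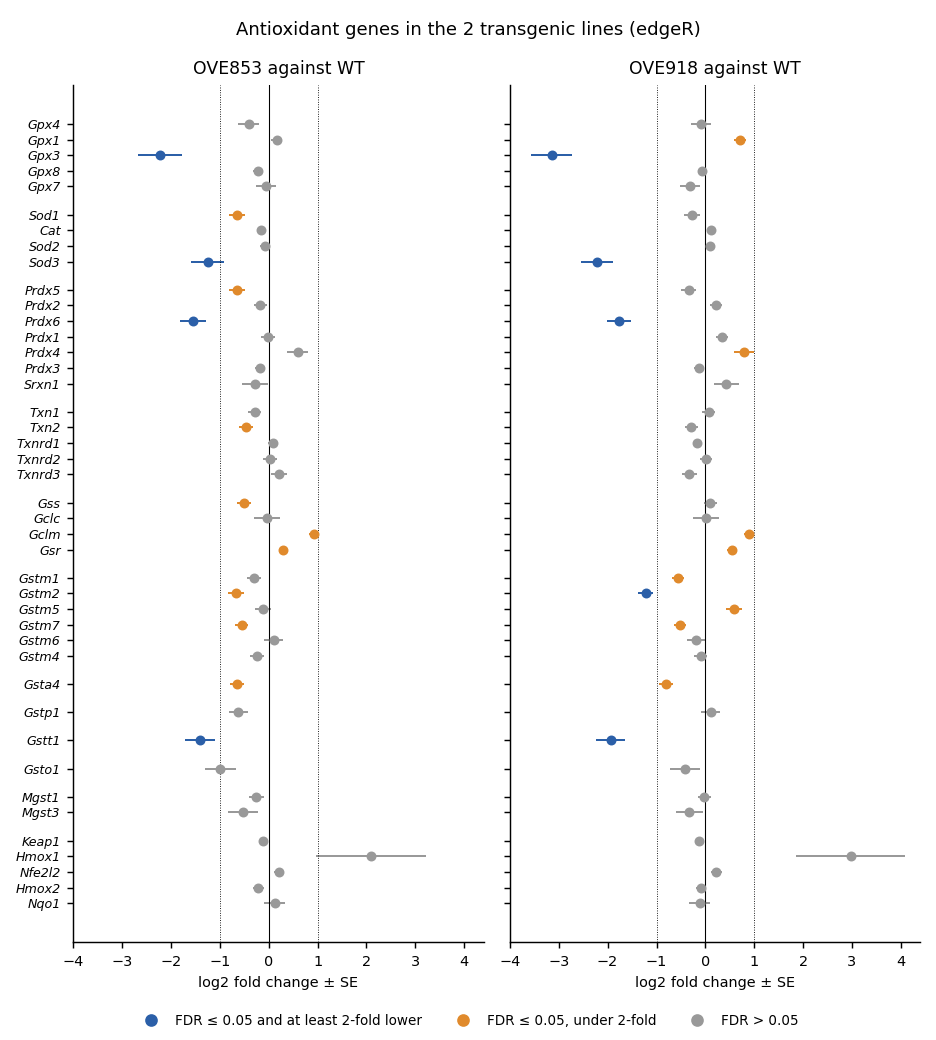
Log2 fold change ± SE of the 42 tested members against WT in OVE853 (left) and OVE918 (right), ordered by role as in the plot of WT levels, with dotted lines at a 2-fold change. Gpx3 lies lowest in both lines (−2.22 and −3.14), and the wide bars at 2.09 and 2.97 belong to Hmox1, which did not pass the FDR.

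Among the glutathione peroxidases, Gpx3, the peroxidase of plasma and other extracellular fluids, had the largest fall of all members. Its level was 178, 147 and 332 CPM in WT, 59.3, 46.1 and 35.1 CPM in OVE853, and 24.7, 10.5, 30.3 and 34.1 CPM in OVE918. No transgenic library reached the lowest WT library. Gpx3 was 4.67-fold lower in OVE853 (log2 fold change −2.22, SE 0.45, FDR = 0.0125) and 8.8-fold lower in OVE918 (−3.14, SE 0.42, FDR = 0.000933). Without WT replicate 3, which was its highest library, the log2 fold changes were −1.79 (FDR = 0.0229) and −2.71 (FDR = 0.00137), and without OVE853 replicate 3 the OVE853 value was −2.06 (FDR = 0.0547).

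Gpx1, the abundant cytosolic peroxidase, went the other way in OVE918. It stood at 87.3, 89.8 and 79.7 CPM in WT, at 101, 94.7 and 92 CPM in OVE853 and at 142, 121, 126 and 171 CPM in OVE918. Every OVE918 library was above every other library, OVE853 lay just above WT, and the rise over WT was 1.64-fold (log2 fold change 0.71, SE 0.12, FDR = 0.00173). The OVE853 value was 0.16 (SE 0.12, FDR = 0.375). Gpx4 was at 252, 318 and 428 CPM in WT, 256, 244 and 254 CPM in OVE853 and 326, 244, 268 and 415 CPM in OVE918, so that the groups overlapped (FDR = 0.206 and 0.804). Of the peroxidases of the endoplasmic reticulum, Gpx8 had log2 fold changes of −0.22 and −0.07 and Gpx7 of −0.06 and −0.31, and neither passed the test.

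Of the superoxide dismutases, each of a different compartment, only Sod3 passed the FDR in both lines. Sod3, the extracellular enzyme, was at 42.4, 33.3 and 65.5 CPM in WT, at 23.9, 15.2 and 20.1 CPM in OVE853 and at 14.4, 5.29, 10.1 and 10.6 CPM in OVE918. The 3 groups did not overlap. Sod3 was 2.38-fold lower in OVE853 (log2 fold change −1.25, SE 0.34, FDR = 0.0334) and 4.67-fold lower in OVE918 (−2.22, SE 0.32, FDR = 0.000908). The OVE853 call was lost without WT replicate 3 (−0.94, FDR = 0.0928) without each OVE853 library in turn and without OVE918 replicate 3 (−1.45 to −0.94 over the 10 fits without a library), whereas the OVE918 value without WT replicate 3 was −1.91 (FDR = 0.00155). Sod1, the cytosolic enzyme, stood at 111, 137 and 171 CPM in WT, 90.6, 90.8 and 84.9 CPM in OVE853 and 124, 94.9, 104 and 138 CPM in OVE918. It was lower in OVE853 at the FDR alone (−0.65, SE 0.17, FDR = 0.0262), but not without WT replicate 3 (FDR = 0.0744), WT replicate 2 or any 1 OVE853 library (−0.79 to −0.48 over these 10 fits), and OVE918 overlapped WT (−0.27, FDR = 0.251). The mitochondrial Sod2 and the catalase gene Cat had log2 fold changes between −0.15 and 0.12, and neither passed the test.

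Gpx3 and Sod3 are the 2 members on the list of secreted enzymes, and some markers listed for tissues next to the lens were also lower in both lines. All 3 markers of the non-pigmented ciliary epithelium (Best2, Slc6a13 and Wfdc1), a tissue that borders the lens, were detected in every library. Their summed level was 134 to 204 CPM in WT, 23 to 37.8 CPM in OVE853 and 8.19 to 15.1 CPM in OVE918. The summed corneal list was 237 to 1619 CPM in WT, 62.7 to 92.9 CPM in OVE853 and 26.6 to 81.8 CPM in OVE918. Nearly all of it was Aldh3a1, so the sum reflects Aldh3a1 rather than the list. Kera was at 0 in every library, and Krt12 was at most 4.91 CPM in WT and at 0 in both lines. Krt5 reached at most 2.21 CPM. Krt14 was not lower in the lines (0.0447 to 0.231 CPM in WT, 0.0302 to 0.238 in OVE853 and 0.223 to 1.06 in OVE918). The paper names Gpx3 among reduced genes linked to the lens epithelium, and Sod3 among reduced extracellular matrix genes. It also lists the markers Best2, Slc6a13, Wfdc1 and Aldh3a1 among the most reduced genes of these same data. The fall of these markers was thus known when the lists were made and is no independent evidence. The summed pigmented epithelium list overlapped between groups (52.3 to 164 CPM in WT, 38.5 to 81 in OVE853 and 39.9 to 74.7 in OVE918). The part of these tissues in the falls of Gpx3 and Sod3 was not tested.

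**Figure D3:**
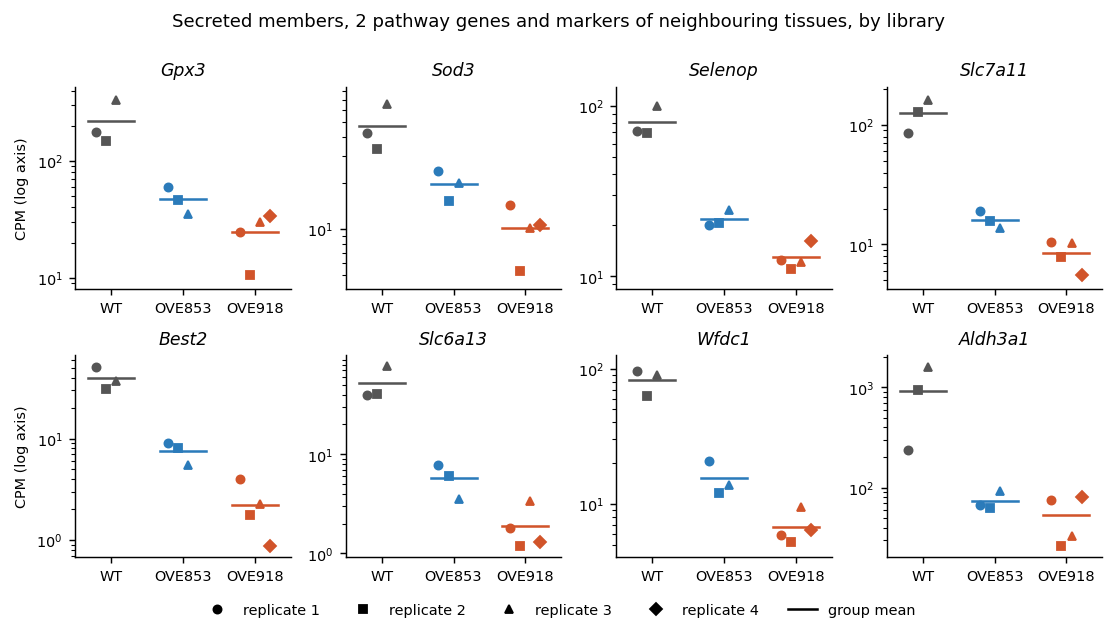
CPM by library, on log axes, of the secreted members Gpx3 and Sod3, the pathway genes Selenop and Slc7a11, the 3 ciliary markers Best2, Slc6a13 and Wfdc1, and Aldh3a1 of the corneal list, with the group mean as a line. All 8 genes are lower in every transgenic library than in every WT library.

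Of the peroxiredoxins and sulfiredoxin, 1 of 7 was reduced in both lines (1.91% of all tested genes were in OVE853 and 3.02% in OVE918). Prdx6, a peroxiredoxin that works with glutathione in place of thioredoxin and also has phospholipase activity, was at 181, 262 and 462 CPM in WT. It was at 108, 105 and 96.2 CPM in OVE853 and at 98, 77.3, 87.5 and 90.4 CPM in OVE918. The transgenic libraries lay close together, and the WT libraries, all above them, spread by more than 2-fold. Prdx6 was 2.94-fold lower in OVE853 (log2 fold change −1.55, SE 0.27, FDR = 0.00434) and 3.42-fold lower in OVE918 (−1.77, SE 0.25, FDR = 0.000698). Without WT replicate 3 it was still reduced in both lines, by −1.11 (FDR = 0.000875) and −1.33 (FDR = 0.000107). In WT the libraries stood in the same order for Prdx6 as for Aldh3a1 of the corneal list (236, 937 and 1611 CPM), which was at 62.6 to 92.4 CPM in OVE853 and 26.3 to 80.5 CPM in OVE918. The corneal list as a whole did not stand in that order. Krt5 did (0.268, 0.423 and 2.21 CPM), Krt12 (0.76, 0.654 and 4.91 CPM) and Krt14 (0.0447, 0.231 and 0.105 CPM) did not, and Kera was at 0. The same order held in WT for Gstt1 and Gsta4, described below, but also for Gpx4, Sod1, Prdx5, Txn2 and Gsto1, among others. It is therefore not particular to Prdx6, Gstt1 and Gsta4, and the part of corneal cells in any of these members was not tested.

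Prdx4, the peroxiredoxin of the endoplasmic reticulum, stood at 59.4, 51.8 and 30.4 CPM in WT, at 69.7, 75.3 and 68.3 CPM in OVE853 and at 78.4, 75, 73 and 99.8 CPM in OVE918. Every transgenic library was above every WT library. The rise passed the FDR in OVE918 (log2 fold change 0.79, SE 0.20, FDR = 0.0192) and not in OVE853 (0.59, SE 0.21, FDR = 0.0787). Prdx5, found in mitochondria, peroxisomes and cytosol, was at 184, 224 and 244 CPM in WT, 135, 139 and 141 CPM in OVE853 and 180, 147, 145 and 217 CPM in OVE918. It was lower in OVE853 (−0.65, SE 0.16, FDR = 0.0203), where it missed the FDR without WT replicate 3 (FDR = 0.0557), WT replicate 2 or any 1 OVE853 library (−0.76 to −0.56 over the 10 fits without a library), and OVE918 overlapped WT (FDR = 0.134). Prdx1, Prdx2 and Prdx3 had log2 fold changes from −0.18 to 0.34 without passing. Srxn1, the sulfiredoxin that reactivates overoxidized peroxiredoxins, was at −0.28 and 0.43, and without WT replicate 3, again its highest WT library, it was higher in OVE918 (0.81, SE 0.19, FDR = 0.0154).

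Of the 5 genes of the thioredoxin system, 1 passed the FDR, as lower in OVE853, where 7.69% of all tested genes were lower. With 5 genes, a count of 1 is near that share and is no result about the system. Txn2, the mitochondrial thioredoxin, was at 68.3, 82.7 and 103 CPM in WT, 61.2, 61.3 and 62.9 CPM in OVE853 and 75, 62.3, 65.4 and 75 CPM in OVE918. Its fall in OVE853 (log2 fold change −0.46, SE 0.14, FDR = 0.0477) missed the FDR without WT replicate 3 (−0.29, FDR = 0.142) and in 6 more of the 10 fits without a library (WT replicate 2, each OVE853 library, and OVE918 replicates 1 and 3), within −0.59 to −0.29, and OVE918 overlapped WT (FDR = 0.144). Txn1, the cytosolic thioredoxin and per exon length the most abundant gene of the group in WT (60.3 FPKM against 38.3 for Txn2), was at 61.4, 81.2 and 75.2 CPM in WT, 57.8, 60.4 and 60.6 CPM in OVE853 and 71.9, 72.7, 65.2 and 94.7 CPM in OVE918 (FDR = 0.181 and 0.765). The 3 reductases Txnrd1, Txnrd2 and Txnrd3 had log2 fold changes from −0.33 to 0.21 and did not pass. Of the 4 genes for enzymes of the mitochondrial matrix (Sod2, Prdx3, Txn2 and Txnrd2), Txn2 in OVE853 was thus the only one past the FDR. With 4 genes, this count of 1 is also near the share of 7.69% and is no result about the compartment.

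Glutathione synthesis and recycling held the smallest FDRs among the members that were higher. Gclm was at 54.5, 54.1 and 51.9 CPM in WT, at 105, 96.4 and 104 CPM in OVE853 and at 99.7, 106, 105 and 86.7 CPM in OVE918. All 7 transgenic libraries were well above the 3 WT libraries, which lay within a few CPM of each other. The rise was 1.9-fold in OVE853 (log2 fold change 0.92, SE 0.09, FDR = 0.000128) and 1.86-fold in OVE918 (0.89, SE 0.09, FDR = 6.33e-05), and it kept the FDR in each of the 10 fits that left out a library (0.90 to 0.96 and 0.86 to 0.96). The catalytic subunit gene Gclc, in contrast, had log2 fold changes of −0.03 and 0.01 (SE 0.27 and 0.26). Per length, the WT level of Gclc was 33.8 FPKM and that of Gclm 7.53 FPKM, and in the lines Gclc stood at 33 and 34.1 FPKM and Gclm at 14.3 and 14 FPKM.

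Gsr, which returns oxidized glutathione to its reduced form, was at 16.4, 15.4 and 15.1 CPM in WT, at 18.6, 19.6 and 19.6 CPM in OVE853 and at 20.9, 24.1, 22.1 and 23.9 CPM in OVE918. The 3 groups did not overlap. It was higher in OVE918 (log2 fold change 0.54, SE 0.09, FDR = 0.00148) and, close to the threshold, in OVE853 (0.30, SE 0.09, FDR = 0.0484), where the call was kept only without WT replicate 1 and without OVE918 replicate 4 (0.28 to 0.34 over the 10 fits). Gss, which completes glutathione, was at 294, 247 and 221 CPM in WT, 185, 186 and 169 CPM in OVE853 and 285, 223, 259 and 320 CPM in OVE918. It was lower in OVE853 (−0.50, SE 0.14, FDR = 0.0415), a call kept only without WT replicate 3, OVE918 replicate 2 or OVE918 replicate 4 (−0.59 to −0.38 over the 10 fits), and it overlapped WT in OVE918 (0.10, FDR = 0.654).

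**Figure D4:**
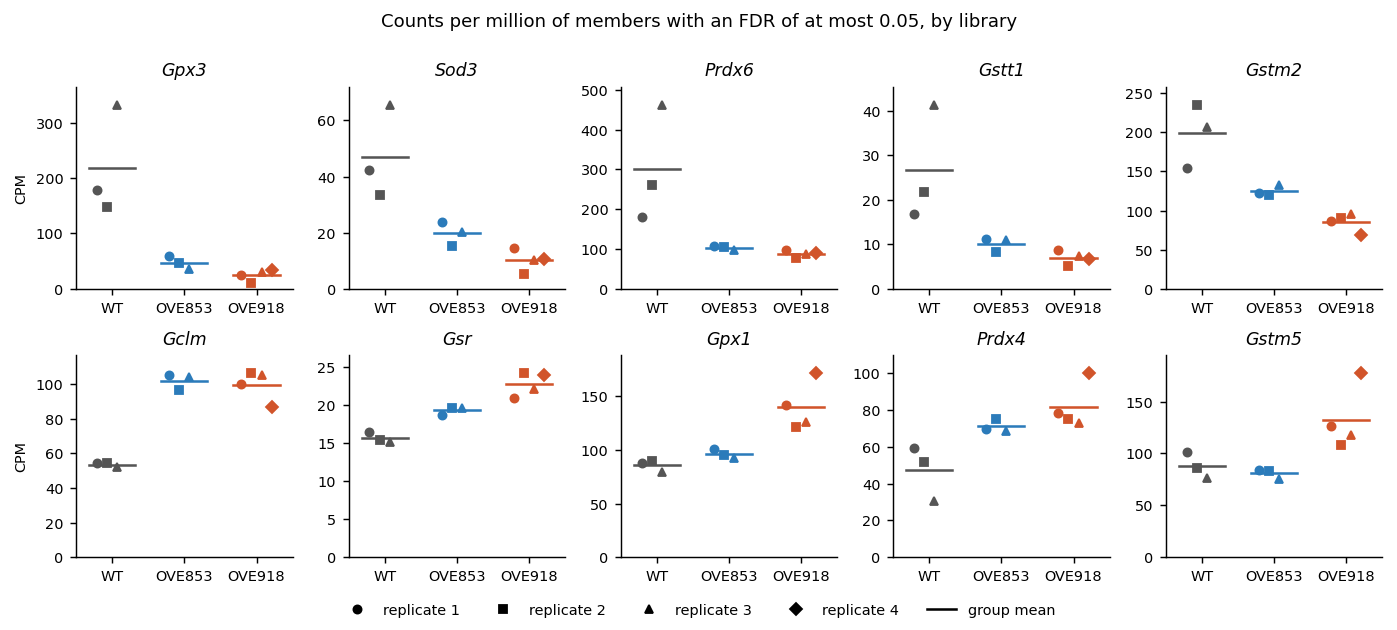
CPM by library of the 5 members reduced in at least 1 line (top row) and of the 5 that were higher at the FDR alone in at least 1 line (bottom row), with the group mean as a line. Gclm lies between 51.9 and 54.5 CPM in WT and between 86.7 and 106 CPM in the transgenic libraries.

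The glutathione transferases, which attach glutathione to electrophiles, are 25 of the members. Of these, 12 were tested, and in OVE853 1 was reduced (1.91% of all tested genes were) and 4 were lower at the FDR alone (7.69% of all). In OVE918 2 were reduced (3.02% of all), 5 were lower (11.0% of all) and 1 was higher (8.00% of all). The mu-class genes form a cluster on chromosome 3 and are similar enough in sequence that the counting could have split reads among them, so their values are uncertain in detail, as are those of the alpha, pi and theta classes. Gstm2 (chr3:107889004-107893785) was at 154, 235 and 207 CPM in WT, at 122, 120 and 133 CPM in OVE853 and at 86.7, 91, 95.2 and 69 CPM in OVE918, 3 groups without overlap. It was reduced in OVE918 (log2 fold change −1.22, SE 0.15, FDR = 0.000243) and lower in OVE853 (−0.67, SE 0.16, FDR = 0.0178), where the FDR was missed without WT replicate 2, OVE853 replicate 1 or OVE853 replicate 2 (−0.82 to −0.53 over the 10 fits without a library). Gstm1 (chr3:107919380-107925380) was at 1053, 1535 and 1381 CPM in WT, 1082, 1037 and 1101 CPM in OVE853 and 870, 1007, 919 and 804 CPM in OVE918. It was lower in OVE918 (−0.56, SE 0.13, FDR = 0.0147), but not without WT replicate 2 (FDR = 0.0641), and its OVE853 value was −0.30 (FDR = 0.165).

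Gstm7 was at 47.7, 52.2 and 37.2 CPM in WT, 33.4, 32.7 and 27.3 CPM in OVE853 and 30, 34.1, 33.6 and 29.8 CPM in OVE918, and it was lower in both lines (log2 fold change −0.55, FDR = 0.0201, and −0.52, FDR = 0.0149). Without WT replicate 2 both calls were lost, and the OVE853 call also without any 1 OVE853 library (−0.68 to −0.45 in OVE853 and −0.65 to −0.41 in OVE918 over the 10 fits). Gstm5, at the plus-strand end of the same cluster (chr3:107803137-107806005), moved the opposite way. It was at 101, 85.6 and 76.4 CPM in WT, 84.1, 82.9 and 75.5 CPM in OVE853 and 126, 108, 118 and 177 CPM in OVE918, with every OVE918 library above the others. Its rise in OVE918 was 0.59 (SE 0.16, FDR = 0.0278) and missed the FDR without WT replicate 3 (FDR = 0.0898), WT replicate 2 or OVE918 replicate 1 (0.42 to 0.70 over the 10 fits), and the OVE853 value was −0.12 (FDR = 0.649). Gstm4 and Gstm6 did not pass the test with all libraries, although Gstm6 was lower in OVE918 without WT replicate 3 (−0.41, FDR = 0.027), and Gstm3 had too few counts to enter it.

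Gsta4, the alpha-class enzyme that detoxifies the lipid peroxidation product 4-hydroxynonenal, was at 53.4, 70.7 and 87.7 CPM in WT, at 43.1, 44.8 and 46.9 CPM in OVE853 and at 41.8, 41.1, 38.6 and 40.9 CPM in OVE918. It was lower in both lines (log2 fold change −0.65, SE 0.15, FDR = 0.0141, and −0.80, SE 0.14, FDR = 0.002), and also without WT replicate 3 (−0.47, FDR = 0.0239, and −0.61, FDR = 0.00272). The OVE853 call was lost without OVE853 replicate 1 or 2 (−0.82 to −0.47 over the 10 fits). The other 5 alpha-class genes reached no more than 2.77 CPM in any library. Gstt1, of the theta class, was at 16.8, 21.7 and 41.3 CPM in WT, at 11.1, 8.15 and 10.9 CPM in OVE853 and at 8.65, 5.1, 7.32 and 6.78 CPM in OVE918. Every transgenic library was below every WT library. It was 2.66-fold lower in OVE853 (−1.41, SE 0.31, FDR = 0.0131) and 3.83-fold lower in OVE918 (−1.94, SE 0.29, FDR = 0.000967). Without WT replicate 3 its values were −0.94 (FDR = 0.0165), under 2-fold, and −1.47 (FDR = 0.000582), and without OVE853 replicate 2 the OVE853 call was lost (FDR = 0.0558).

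Gstt1 lies in a cluster on chromosome 10 with Gstt3, Gstt4 and Gstt2, all on the minus strand, of which Gstt4 had at most 3 counts in any library. Gstt2 and Gstt3 missed the FPKM filter and were tested only with filterByExpr of edgeR in its place, under which 47 members and 18058 genes were tested. Gstt3 was at 4.34, 1.88 and 4.66 CPM in WT, 1.63, 1.67 and 1.12 CPM in OVE853 and 0.899, 0.261, 0.743 and 0.507 CPM in OVE918. Its log2 fold change was −1.28 in OVE853 (SE 0.43, FDR = 0.071) and −2.56 in OVE918 (SE 0.42, FDR = 0.00201). Gstt2 was at 4.74, 3.65 and 5.93 CPM in WT, 3.32, 3.04 and 2.83 CPM in OVE853 and 2.1, 1.86, 2.19 and 2.68 CPM in OVE918 (−0.63, FDR = 0.0917, and −1.09, FDR = 0.00628). The OVE918 values without WT replicate 3 were −2.36 for Gstt3 (FDR = 0.00388) and −0.93 for Gstt2 (FDR = 0.019), the latter under 2-fold. With that filter 4 members were reduced in OVE853 (3.72% of all genes) and 7 in OVE918 (5.34% of all), and 0 were elevated in either (3.17% and 3.45% of all).

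No gene of the other classes passed the test with all libraries. Gstp1 was at 132, 97.5 and 87.1 CPM in WT, 69.6, 73.1 and 63.9 CPM in OVE853 and 121, 80, 110 and 144 CPM in OVE918, so that OVE853 lay below both other groups without a call (log2 fold change −0.62, FDR = 0.0625, and 0.11, FDR = 0.737), and without WT replicate 3 it was lower in OVE853 (−0.74, FDR = 0.0448). The omega-class Gsto1 was at 9.57, 11.5 and 21.5 CPM in WT, 7.79, 6.56 and 7.15 CPM in OVE853 and 10.3, 7.11, 9.51 and 15.6 CPM in OVE918 (−0.99, FDR = 0.0622, and −0.42, FDR = 0.358). The microsomal Mgst1 was at 41, 39 and 45.8 CPM in WT, 36.6, 36.1 and 33.2 CPM in OVE853 and 49.4, 31, 38.4 and 46.4 CPM in OVE918 (−0.25, FDR = 0.273, and −0.02, FDR = 0.93).

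In the NRF2 axis, 0 of 5 genes passed the FDR in either line, where 8.10% of all tested genes were higher and 7.69% lower in OVE853 and 8.00% and 11.0% in OVE918. With 5 genes, a count of 0 is near these shares and is no result about them. Nfe2l2 itself had log2 fold changes of 0.21 (SE 0.11, FDR = 0.212) and 0.22 (SE 0.11, FDR = 0.186). Keap1, whose product directs NRF2 to degradation, was at 44, 48.4 and 49.5 CPM in WT, 45.4, 41 and 45.1 CPM in OVE853 and 42, 42.2, 45.3 and 43.6 CPM in OVE918 (−0.11, FDR = 0.372, and −0.13, FDR = 0.285). Nqo1, a quinone reductase often used as a readout of NRF2, was at 0.12 (SE 0.22) and −0.12 (SE 0.21), and Hmox2, the constitutive heme oxygenase, at −0.21 (SE 0.11) and −0.10 (SE 0.10).

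Hmox1, the inducible heme oxygenase, had the widest spread of all members. It was at 11.7, 9.77 and 12.8 CPM in WT, at 7.64, 130 and 9.05 CPM in OVE853 and at 97.9, 21.9, 83.1 and 157 CPM in OVE918. All OVE918 libraries were above WT, whereas in OVE853 replicate 2 alone was high and the others were below every WT library. The log2 fold changes were 2.09 in OVE853 (SE 1.12, FDR = 0.219) and 2.97 in OVE918 (SE 1.11, FDR = 0.101). Without OVE853 replicate 2 the OVE853 value was −0.45 (FDR = 0.674), and the OVE918 value was 2.98 with an FDR of 0.0102. A fit of OVE918 and WT alone gave an FDR of 0.0218 and DESeq2 one of 0.0166.

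Like Hmox1, all 6 lens fiber markers were highest in replicate 2 of OVE853 and lowest in replicate 2 of OVE918. This was not particular to fiber markers, and all tested genes were not counted for it. The summed retinal neuron list was at 30.1, 63.3 and 21.8 CPM in OVE853 and at 128, 23.5, 44.5 and 47.6 CPM in OVE918. The summed photoreceptor list was at 17.9, 31.3 and 15.5 CPM in OVE853 and at 36.8, 21.8, 22.2 and 42.7 CPM in OVE918. The beaded filament gene Bfsp1 was at 254, 932 and 225 CPM in OVE853 and at 1389, 346, 792 and 1328 CPM in OVE918, against 623, 529 and 593 CPM in WT. The fiber membrane gene Lim2 was at 638, 1045 and 477 CPM in OVE853 and at 1510, 776, 1123 and 1761 CPM in OVE918, against 1122, 685 and 617 CPM in WT. All 6 fiber markers were detected in every library, and their summed level was 14828 to 22106 CPM in WT, 9176 to 15745 CPM in OVE853 and 13739 to 28261 CPM in OVE918. Erythrocyte markers summed to 20.5 to 42.6, 7.67 to 34.4 and 13.8 to 74.3 CPM, and macrophage markers to 16.2 to 41.2, 42.1 to 66.2 and 29.3 to 76.4 CPM. Their part in the Hmox1 values was not tested.

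**Figure D5:**
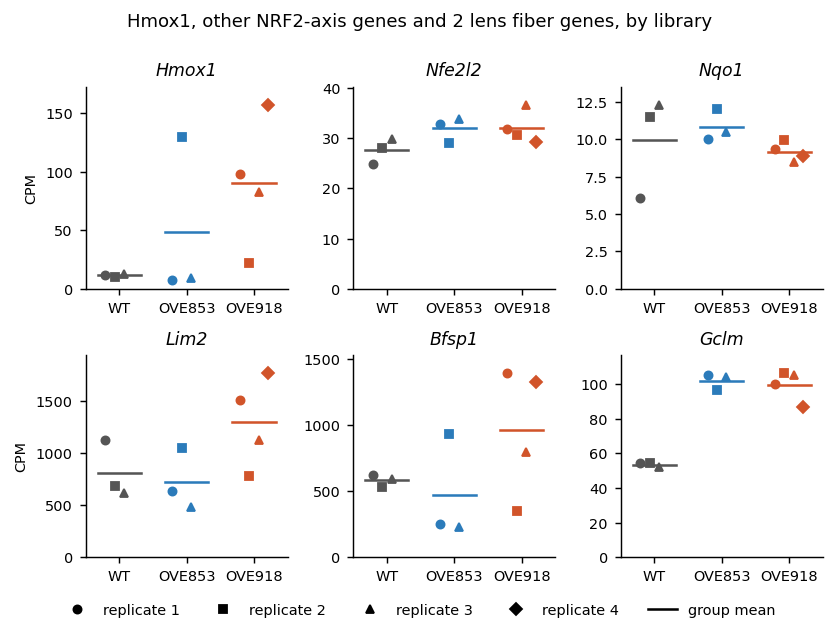
CPM by library of Hmox1, Nfe2l2, Nqo1, Gclm and the lens fiber genes Lim2 and Bfsp1, with the group mean as a line. Hmox1 is high in OVE853 replicate 2 and OVE918 replicates 1, 3 and 4, while Gclm is high in every transgenic library.

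Between the lines, 0 of 42 members were elevated (0.0721% of all tested genes) and 0 reduced (0.415% of all) in OVE918 against OVE853, and 0 were higher (0.378% of all) or lower (0.937% of all) at the FDR alone. By DESeq2 0 were elevated and 0 reduced, by voom 0 and 1 (Sod3), and at an unadjusted p under 0.05 by edgeR 11 were higher and 4 lower. All tested genes were not counted at that unadjusted threshold, so these counts cannot be set against a share of all genes. The fitted log2 fold changes ran from −0.97 for Sod3 (SE 0.32, FDR = 0.128) to 0.88 for Hmox1 (SE 1.00, FDR = 0.611), with a median of 0.15 against −0.02 for all tested genes. Closest to the threshold were Gpx1 (0.55, SE 0.12, FDR = 0.0501), Gss (0.59, SE 0.14, FDR = 0.0618) and Gstm5 (0.71, SE 0.16, FDR = 0.0622). Without WT replicate 3, which changes the pooled estimate of the spread, 5 members were higher at the FDR alone (Gpx1, Gss, Gstm5, Gstp1 and Srxn1, 1.38% of all genes) and 0 lower (2.74% of all).

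The rest of the pathway was read from 75 further genes, of which 55 were tested. In OVE853, 1 was elevated and 2 were reduced, and in OVE918 0 were elevated and 3 reduced, while between the lines 0 were called in either direction (the shares of all genes are those given for the members). For these counts of 0, DESeq2 and voom also called 0. At an unadjusted p under 0.05 by edgeR 9 were higher in OVE918 than in WT, and 14 higher and 7 lower in OVE918 than in OVE853. These unadjusted counts, too, have no share of all genes to be set against. The median log2 fold change was −0.13 in OVE853 and 0.00 in OVE918.

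Selenop, the secreted selenoprotein that carries selenium for enzymes such as the glutathione peroxidases, was at 71.6, 69.3 and 100 CPM in WT, at 20.1, 20.6 and 24.4 CPM in OVE853 and at 12.5, 11, 12.2 and 16.2 CPM in OVE918. The 3 groups did not overlap. It was 3.7-fold lower in OVE853 (log2 fold change −1.89, SE 0.18, FDR = 8.77e-05) and 6.21-fold lower in OVE918 (−2.64, SE 0.16, FDR = 3.59e-06), beside the ciliary and corneal marker values given with Gpx3. Sesn1, a stress-responsive sestrin, was at 65.7, 99.1 and 101 CPM in WT and between 36.4 and 47.8 CPM in every transgenic library (−1.09, FDR = 0.00147, and −1.16, FDR = 0.000335), and without WT replicate 3 its OVE853 value was −0.99 (FDR = 0.0032), just under 2-fold. Oplah, the 5-oxoprolinase of glutathione turnover, was at 42.1, 55.7 and 84.4 CPM in WT, at 42.3, 36.8 and 42.2 CPM in OVE853 and at 34.9, 27.9, 31.5 and 27.2 CPM in OVE918, where it was 2-fold lower (SE 0.19 on the log2 scale, FDR = 0.00476). That call stood on the 2-fold bound, and 5 of the 10 fits without a library kept it (−1.21 to −0.69, the latter without WT replicate 3). Abcc4, an efflux transporter of organic anions, was at 23.8, 24.3 and 16.4 CPM in WT, 43.4, 45.7 and 42.8 CPM in OVE853 and 31.7, 43.8, 37.8 and 27 CPM in OVE918. It was elevated in OVE853 (1.03, SE 0.19, FDR = 0.00521) and higher in OVE918 (0.71, SE 0.18, FDR = 0.0181), and without WT replicate 3 the values were 0.87 (FDR = 0.00936) and 0.54 (FDR = 0.051).

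The cystine transporter gene Slc7a11, chosen here after its values were seen, showed what the FPKM filter can remove. It supplies the cystine from which cells make cysteine for glutathione, and it was at 85.7, 128 and 161 CPM in WT, at 19, 15.6 and 13.7 CPM in OVE853 and at 10.4, 7.86, 10.2 and 5.54 CPM in OVE918. The 3 groups did not overlap. Because its level per length was high only in WT (13.5 FPKM against 1.74 and 0.921), it did not reach 5 libraries. With filterByExpr it was 7.69-fold lower in OVE853 (log2 fold change −2.94, SE 0.27, FDR = 0.00015) and 14.4-fold lower in OVE918 (−3.85, SE 0.25, FDR = 9.77e-06), and without WT replicate 3 the values were −2.77 and −3.65 (FDR = 7.58e-05 and 4.29e-06). That filter tested 72 of the pathway genes. It called 2 elevated (3.17% of all genes) and 6 reduced (3.72% of all) in OVE853. In OVE918 it called 1 elevated (3.45% of all) and 7 reduced (5.34% of all), and Oplah there was just under 2-fold (−0.98).

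The further genes called with filterByExpr were named after their values were seen as well, and 6 of these 9 calls were lost without WT replicate 3. Slc1a1, a carrier of glutamate and cysteine, was at 4.47, 3.58 and 21.1 CPM in WT, at 1.21, 1.67 and 1.46 CPM in OVE853 and at 3.64, 0.596, 1.9 and 1.85 CPM in OVE918. WT replicate 3, the library with the high retinal neuron markers, stood far above the others, and OVE918 overlapped WT. Its log2 fold changes of −2.73 (SE 0.74, FDR = 0.0391) and −2.26 (SE 0.66, FDR = 0.0418) were −1.51 (FDR = 0.0948) and −1.02 (FDR = 0.21) without that library. The glutaredoxin gene Glrx was reduced in both lines (−1.56, FDR = 0.048, and −2.11, FDR = 0.00746), and without WT replicate 3 in OVE918 only (−1.18, FDR = 0.128, and −1.70, FDR = 0.0199). Ggt5 (−1.27, FDR = 0.0195) and the NRF2 target Osgin1 (−1.49, FDR = 0.0018) were reduced in OVE918, also without that library (−1.36, FDR = 0.0229, and −1.34, FDR = 0.00415).

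Cth, which makes cysteine from cystathionine, was reduced in OVE853 (−1.42, FDR = 0.0352) and lost the call without WT replicate 3 (−1.37, FDR = 0.0651). Ncf1, a subunit of the phagocyte NADPH oxidase, was elevated in both lines (1.79, FDR = 0.046, and 1.80, FDR = 0.0326) from a WT mean of 0.682 CPM, although OVE918 replicate 2 lay within WT at 0.596 CPM. Both calls were lost without WT replicate 3 (FDR = 0.0991 and 0.0718). That fit in turn called 2 other genes of the oxidant-producing list in both lines. Ncf4 was elevated (3.71, FDR = 0.00582, and 3.72, FDR = 0.00303), from 1 count each in WT replicates 1 and 2. WT replicate 3 held 13 counts, against 10 to 21 in the transgenic libraries. With all libraries Ncf4 was not called (1.70, FDR = 0.118, and 1.69, FDR = 0.107), so its call rests on leaving out that library and on low counts. Nox4 was reduced (−1.02, FDR = 0.0316, and −1.24, FDR = 0.00535). With all libraries it was under 2-fold in both lines (−0.72, FDR = 0.131, and −0.97, FDR = 0.0406). Macrophage markers summed to 24.9 CPM in the median WT library, 59.6 CPM in OVE853 and 56 CPM in OVE918, and the part of macrophages in Ncf1 was not tested.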

How the data were processed

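RNA-seq was analysed for 10 libraries of pooled lens epithelia (3 WT, 3 OVE853, 4 OVE918), grouped by the labels. Per the submitters' processing notes and the study's methods, the authors used Cutadapt 5.2 for trimming and STAR 2.7.11b for alignment to GRCm39, counted read pairs per RefSeq gene with featureCounts 2.0.8, reverse-stranded, and deposited raw counts per gene without normalization. Depth was 24073311 to 31908525 counts per library, and 3 counts correspond to 0.0906 to 0.138 CPM.

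Counts were fitted in R 4.3.3 with edgeR 4.0.16 (TMM, quasi-likelihood, robust, 3 groups together), which is an earlier version than the authors' edgeR 4.6.3. Genes with at least 2 FPKM in 5 of 10 libraries were tested (11097), with exon lengths of GENCODE Primary transcripts matched by symbol (7489 genes had none). FDRs are Benjamini-Hochberg values over all tested genes, and each SE is the log2 fold change divided by the square root of its F statistic. A gene was called where its FDR did not exceed 0.05 and its log2 fold change reached 1 in size. On simulated data of 11097 genes with 200 changed 4-fold, 191 were recovered in OVE853 and 194 in OVE918, with 2 false calls each.

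The members and lists were chosen with earlier results of these data known. Values in every library are given for members that passed the FDR in any contrast or reached a 2-fold change against WT, and for the most abundant member of each role. Pathway genes are named where called against WT. The roles, the pathway lists and the marker lists of lens epithelium, lens fiber cells, retinal neurons, photoreceptors, pigmented epithelium, non-pigmented ciliary epithelium, cornea, macrophages, endothelium and erythrocytes were given as counts, medians or summed CPM without a test. Promoter sequence was read from the GRCm39 genome at GENCODE starts. Alternatives comprised DESeq2 1.42.0, voom with sample weights (limma 3.58.1), RLE and upper-quartile normalization, other low-value filters, a fit on the compared groups alone, a fit that was not robust, the replicate number, no minimum fold change and leaving out each library.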

Additional observations from a re-analysis of the deposited data

Results flagged for a closer look

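Of the 42 tested members, 2 had an OVE918 library that lay farther from the other 3 than Dixon's criterion for 4 samples allows, where chance gives about 1 in 20 groups. Gpx7, a peroxidase of the endoplasmic reticulum, was at 6.18 CPM in OVE918 replicate 4 against 4.07, 4.28 and 4.42 CPM in the others. Gstm4, of the mu class, was at 11.1 CPM in OVE918 replicate 3 against 11.8, 11.9 and 11.9 CPM, a gap of less than 1 CPM. Neither gene passed the FDR in any contrast.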

How the results depend on the processing

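Of 280 recomputed fold changes of named members under alternatives other than leaving out a library, 263 kept their direction and side of the FDR threshold, 15 lost the FDR and 2 gained it. Of 280 that left out a library, 225 kept both, 53 lost the FDR, 1 gained it and 1 reversed, which was Hmox1 in OVE853 without OVE853 replicate 2 (−0.45, within a range of −0.45 to 2.60). With no minimum fold change, the counts of members were 2 higher and 11 lower in OVE853 and 5 higher and 8 lower in OVE918. DESeq2 and a fit of only the groups compared called 1 member elevated in OVE918 (Hmox1), and voom with sample weights called 1 reduced in OVE918 against OVE853 (Sod3). Leaving out a library gave 2 to 5 reduced members in OVE853, 5 in OVE918, and 0 to 1 elevated in OVE918. Among all tested genes these fits gave 123 to 298 reduced in OVE853 and 249 to 386 in OVE918.

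For the other pathway genes, whose alternatives were chosen after seeing the data, filterByExpr gave 2 elevated and 6 reduced in OVE853 and 1 and 7 in OVE918, because genes under the FPKM filter then entered. Of all genes, 3.17% and 3.72% were then called in OVE853 and 3.45% and 5.34% in OVE918. Without WT replicate 3 it gave 1 and 4, and 1 and 7, and all genes were not counted in that fit. No filter gave 2 and 5, and 1 and 6. Of 31082 genes it called 517 and 544, and 603 and 945. With no minimum fold change the counts were 5 and 4 (8.10% and 7.69% of all genes), and 1 and 10 (8.00% and 11.0% of all). Voom gave 0 elevated in OVE853, where it called 340 of 11097 genes. Leaving out a library gave 0 to 1 elevated and 1 to 2 reduced in OVE853, with the lowest of both without WT replicate 3 (0 and 1). Of all 10953 genes tested in that fit, 273 were elevated and 123 reduced. Apart from the filters, the cause was not tested.

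Libraries of the same replicate number did not deviate together (correlations of −0.303 to 0.0838, and 1 of 10 libraries correlated best with its own number), so the numbers do not pair the samples. With the replicate number as a block, Gsr (0.30, FDR = 0.0719) and Txn2 (−0.45, FDR = 0.0669) in OVE853 missed the FDR, and the counts of reduced members stayed within 1.5 times. Depth limits the members with at most 3 counts, for which no difference could be measured.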
